A study of Mus musculus with 16 samples.

Results

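The genes described here are the repressors of the liver clock and the PAR bZIP transcription factors that the clock drives, measured in the livers of mice given a caecal transfer or its vehicle. They were Dbp, Tef and Hlf (PAR bZIP factors), Nr1d1 and Nr1d2 (the nuclear receptors REV-ERBα and REV-ERBβ), Per1, Per2 and Per3 (the period proteins), and Bhlhe40 and Bhlhe41 (DEC1 and DEC2). Their probes were found by gene name, and all 10 genes had at least 1 of the 21 probes read for them, of 37074 gene names on the array. Of the 10 genes, 9 were brighter than background on enough arrays to be measured, as were 20404 genes in all. Bhlhe41 was not, since 1 of its probes was well above background on 1 of 16 arrays and the other on 0, and no difference is given for it.

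All mice were C57Bl/6 males, 6 weeks old at the start, fed NC for 4 weeks and 10 weeks old by the labels, without antibiotics. Conv + PBS mice (n = 6) were gavaged with reduced PBS as the vehicle, although their sample labels read not transplanted. Conv + LM mice (n = 5) received the caecal content of lean donors and Conv + OM(HFD) mice (n = 5) that of donors made obese by a HFD, in each case pooled over donors. Mice were group-housed and the cage of each is not given, so cage and group cannot be told apart here. By the paper, the light cycle was inverted, with light off at 10 a.m., and mice were killed after a fast of 6 h. The hour at which the livers were taken is not given in the sources used here. Each sample was 1 mouse, and p-values measure the spread between these mice.

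The clock of a liver cell is a loop of transcription. CLOCK and BMAL1, the product of Arntl, bind E-boxes and switch on the Per, Nr1d, Bhlhe40, Bhlhe41 and Dbp genes. The period proteins then block CLOCK and BMAL1, the DEC proteins compete for the E-box, and the REV-ERB receptors silence Arntl through sites that ROR receptors activate. DBP, TEF and HLF bind a further site, the D-box, and pass the rhythm on to genes of detoxification and cholesterol breakdown. In mouse liver, Dbp and Arntl are known to peak at opposite times of day.

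Sequence before the start of transcription is shown for the genes whose levels moved with Dbp or whose products act on each other through these sites. RefSeq promoters (GRCm38.p6) were matched for 8 of the 10 genes, and Per2 and Bhlhe40 are named only. The 250 bases before each start were searched on both strands for the E-box CACGTG, the D-box TTANGTAA, the ROR half-site AGGTCA and the cAMP response element TGACGTCA, which were held by 6.02%, 2.06%, 14.02% and 1.55% of 32851 promoters of this length. Capitals mark the matches. Per3 (chr4:151044666-151044915, minus strand) held 2 D-boxes, Tef (chr15:81811164-81811413, plus strand, the second of 2 windows) 1 E-box, and Per1 (chr11:69098699-69098948, plus strand, the first of 2 windows) 1 E-box and 1 ROR half-site, while Dbp (chr7:45704997-45705246, plus strand) held none of the 4 in this window.
Per3: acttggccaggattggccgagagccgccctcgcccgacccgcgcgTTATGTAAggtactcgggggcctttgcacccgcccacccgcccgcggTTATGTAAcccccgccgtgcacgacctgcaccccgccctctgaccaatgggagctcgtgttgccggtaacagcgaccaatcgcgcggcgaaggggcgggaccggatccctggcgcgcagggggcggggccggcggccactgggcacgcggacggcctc
Tef: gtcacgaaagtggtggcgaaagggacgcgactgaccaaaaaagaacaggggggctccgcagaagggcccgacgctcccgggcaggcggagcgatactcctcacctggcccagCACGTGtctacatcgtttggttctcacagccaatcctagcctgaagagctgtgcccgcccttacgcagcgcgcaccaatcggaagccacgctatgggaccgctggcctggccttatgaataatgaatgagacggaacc
Per1: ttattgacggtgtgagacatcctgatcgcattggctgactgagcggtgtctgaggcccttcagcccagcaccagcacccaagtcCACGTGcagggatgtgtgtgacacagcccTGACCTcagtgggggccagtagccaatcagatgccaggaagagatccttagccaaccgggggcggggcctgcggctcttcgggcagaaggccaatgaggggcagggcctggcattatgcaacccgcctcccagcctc
Dbp: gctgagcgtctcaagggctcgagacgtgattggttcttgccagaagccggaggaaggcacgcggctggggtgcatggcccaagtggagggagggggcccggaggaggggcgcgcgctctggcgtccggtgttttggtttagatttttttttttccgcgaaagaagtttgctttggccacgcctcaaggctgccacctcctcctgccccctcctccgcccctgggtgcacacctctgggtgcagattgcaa
Of the windows not printed, the other Tef window and that of Bhlhe41 held 1 E-box each, Nr1d2 held 1 ROR half-site, Hlf held 1 cAMP response element, and Nr1d1 and the other Per1 window held none. A match is a description of the letters and not a bound site.

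The level of each gene was read by probes of 60 bases placed on mm9. The brightest probe stood for a gene with several. Nr1d1 has a single probe, which spans 503 bases of chromosome 11 (98630526 to 98631028) and so joins sequence on both sides of an intron, as does the dimmest of the 4 Tef probes (chromosome 15, 81651816 to 81653921). Both are shown because they read spliced RNA.
Nr1d1 probe: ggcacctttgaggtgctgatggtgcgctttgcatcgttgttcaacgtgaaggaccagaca
Tef probe: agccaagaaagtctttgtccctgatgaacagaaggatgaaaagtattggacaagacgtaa
Values below are log2 intensities minus the 75th percentile of their array, so that a value of 0 is the brightness of that percentile and a step of 1 is a doubling. Probes differ in how brightly they glow, and levels are therefore compared between mice and not between genes.

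Dbp differed widely between mice that had been treated alike. In Conv + PBS mice it ran from 4.79 to 6.73 (median 5.76), in Conv + LM mice it was 6.58, 6.12, 5.66, 5.55 and 4.57, and in Conv + OM(HFD) mice it was 6.57, 5.87, 5.79, 4.95 and 4.22. High and low mice were found in every group, and the groups overlapped over most of their range. Between the lowest and the highest of the 16 livers the level differed 5.70-fold. The SD of Dbp within groups was 0.83, larger than that of 96.1% of the genes tested, and the difference between groups held 2.22% of its variance. Its second probe, placed 3′ of the first on chromosome 7, had an SD of 0.712 and moved with the first (r = 0.987 over 16 mice).

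The other PAR bZIP factors were steadier. Tef had an SD within groups of 0.146 (18.2% of genes had a smaller one) and Hlf of 0.259 (54.4%), near the median of all genes (0.240). The other Tef probes had SDs of 0.176, 0.328 and 0.239. Among the repressors, by the brightest probe of each, Nr1d1 and Bhlhe40 varied most, with SDs of 0.417 and 0.414 (78.2% and 78.0%). Those of Per3, Per2, Nr1d2 and Per1 were 0.319, 0.219, 0.193 and 0.177. Other probes that passed the filter had SDs of 0.495 and 0.510 (Per3), 0.370 (Per2) and 0.363 and 0.209 (Nr1d2). The spread is not independent of the choice of these genes, which was made with earlier results of these mice known, and it is given as a description.

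**Figure D1:**
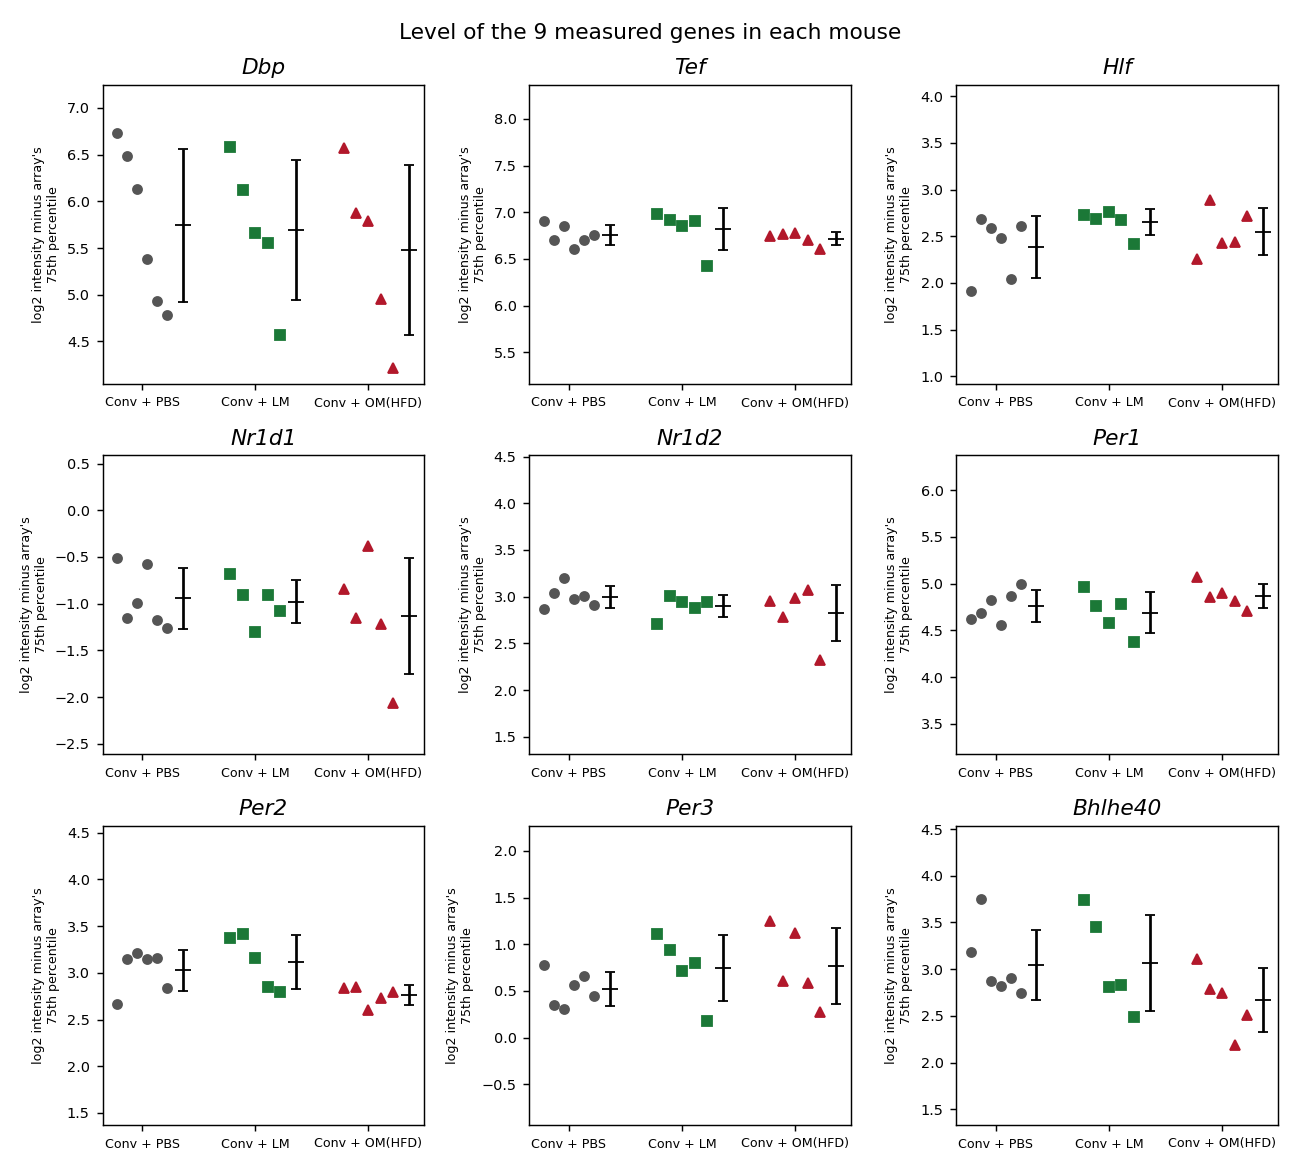
Level of the 9 measured genes in each mouse (y axis, log2 intensity minus the 75th percentile of the array, every panel 3.2 units high), by group on the x axis, with mice in the order of their numbers and bars for mean ± SD. Dbp spreads over 4.22 to 6.73, while Tef stays between 6.43 and 6.98.

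The groups were then compared, to ask whether the transferred microbiota changed these genes in the recipient liver. Of the 9 measured genes, 6 had a lower and 3 a higher mean with the HFD-microbiota than with the vehicle, with differences between −0.38 and 0.25 and a median of −0.17 (median of all genes, 0.00). In limma, 0 of the 9 had an unadjusted p under 0.05, where 3.25% of all genes did. For Conv + LM vs. Conv + PBS mice, 5 were higher and 4 lower, with a median of 0.02, and 0 of the 9 had such a p, where 3.88% of all genes did. For Conv + OM(HFD) vs. Conv + LM mice, 7 were lower and 2 higher, with a median of −0.11, and 1 of the 9 did, where 2.67% of all genes did. After Benjamini-Hochberg adjustment over 20404 genes, limma left 0 members and 0 genes in each comparison. The first count rose to 1 without Conv + PBS mouse 1 or 6 (3.83% and 4.19% of all genes), the second to 2 without Conv + LM mouse 17 (4.37%), and the third to 3 without that mouse (3.51%) and to 0 without Conv + LM mouse 13 or 14 or Conv + OM(HFD) mouse 28 (2.35%, 2.43% and 2.37%). The methods' t-test gave 1, 0 and 1 of the 9 genes under its unadjusted threshold, where 2.98%, 3.66% and 2.87% of all genes were. For each of the 9 genes the groups overlapped in all 3 comparisons, and 0.23%, 0.279% and 0.436% of all genes had groups that did not.

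Per2, a period gene that also responds to glucocorticoids and temperature, was the gene under the threshold. It was 2.84, 2.85, 2.60, 2.73 and 2.80 in Conv + OM(HFD) mice and 3.37, 3.42, 3.16, 2.84 and 2.80 in Conv + LM mice, while Conv + PBS mice ran from 2.66 to 3.21 (median 3.15). The Conv + OM(HFD) mice lay close together at the low end, which 2 of the 5 Conv + LM mice also reached. The mean difference between the HFD-microbiota and the lean microbiota was −0.35 (standard error 0.14), at a limma p of 0.0209 (adjusted p = 0.999) and an exact two-sided permutation p of 0.0476. Against Conv + PBS mice it was −0.26 (standard error 0.13), at a limma p of 0.0645 and an exact permutation p of 0.0433, and the limma p for this difference was 0.0240 with the slide as a block, 0.0267 with normexp background correction and 0.0171 with array weights. The limma p of the first comparison rose to between 0.0521 and 0.0626 without Conv + LM mouse 13 or 14 or Conv + OM(HFD) mouse 28, and was 0.0576 with the mean of both probes (difference −0.30). The other Per2 probe, well above background on 9 arrays, differed by −0.24 and −0.30 in the same comparisons and did not follow the first across mice (r = 0.205). The summed level of 5 Kupffer cell markers, all above background on every array, was 4.95 to 6.44 in Conv + OM(HFD), 4.73 to 5.36 in Conv + LM and 5.07 to 7.60 in Conv + PBS mice and had an r of −0.42 with Per2, and its part in the difference was not tested.

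Bhlhe40, which encodes a repressor that competes for the E-box, was 3.11, 2.79, 2.75, 2.19 and 2.51 in Conv + OM(HFD) mice, 3.74, 3.45, 2.81, 2.83 and 2.49 in Conv + LM mice, and 2.74 to 3.75 (median 2.89) in Conv + PBS mice. Its lowest value was in a Conv + OM(HFD) mouse, and the groups overlapped. The difference between the HFD-microbiota and the vehicle was −0.38 (standard error 0.24), at a limma p of 0.131 and an exact permutation p of 0.110. Without Conv + PBS mouse 2 it was −0.24. Between the HFD-microbiota and the lean microbiota it was −0.40 (standard error 0.25), at a limma p of 0.128 and an exact permutation p of 0.159, and −0.23 without Conv + LM mouse 13. The limma p of these differences was 0.0484 and 0.0326 with the slide as a block, and that of the second was 0.0449 without Conv + LM mouse 17. With the mouse number, centred within groups, as a covariate they were 0.0282 and 0.0272. Centred in this way the number takes up spread among the mice of a group and leaves the differences between groups as they were.

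Dbp differed by −0.26 between the HFD-microbiota and the vehicle, with a 95% confidence interval of −1.25 to 0.73, and by −0.05 (−1.03 to 0.94) between the lean microbiota and the vehicle. The standard error behind both intervals was 0.464, and 0.137 when the mouse number of the sample title, centred within groups, entered the fit, which does not adjust the differences for the number. Tef, with its small spread by the brightest probe, was bounded more tightly, at −0.03 (−0.24 to 0.17) and 0.07 (−0.14 to 0.27). The second of these differences was 0.16 without Conv + LM mouse 17 and 0.02 without Conv + LM mouse 13. Without 1 mouse the first ran from −0.06 to −0.005. The other Tef probes differed by −0.08, −0.04 and −0.20 in the first comparison and by −0.003, 0.09 and −0.30 in the second. The last value lies outside the interval of the brightest probe. Hlf was higher with the lean microbiota than with the vehicle by 0.27 (standard error 0.15), at a limma p of 0.100 and an exact permutation p of 0.154, and by 0.17 without Conv + PBS mouse 1. Nr1d1 and Nr1d2 differed by −0.19 and −0.17 between the HFD-microbiota and the vehicle (exact permutation p = 0.556 and 0.223), and by 0.04 and −0.05 without Conv + OM(HFD) mouse 30. Per1 and Per3 had means higher by 0.11 and 0.25 with the HFD-microbiota than with the vehicle (exact permutation p = 0.253 and 0.225), but the 2 other Per3 probes differed by −0.04 and 0.14. Without Conv + OM(HFD) mouse 25 these differences were 0.06 for Per1 and 0.13 for Per3, that of Per1 was 0.07 without Conv + PBS mouse 4, and that of Per3 was 0.16 without Conv + OM(HFD) mouse 28.

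**Figure D2:**
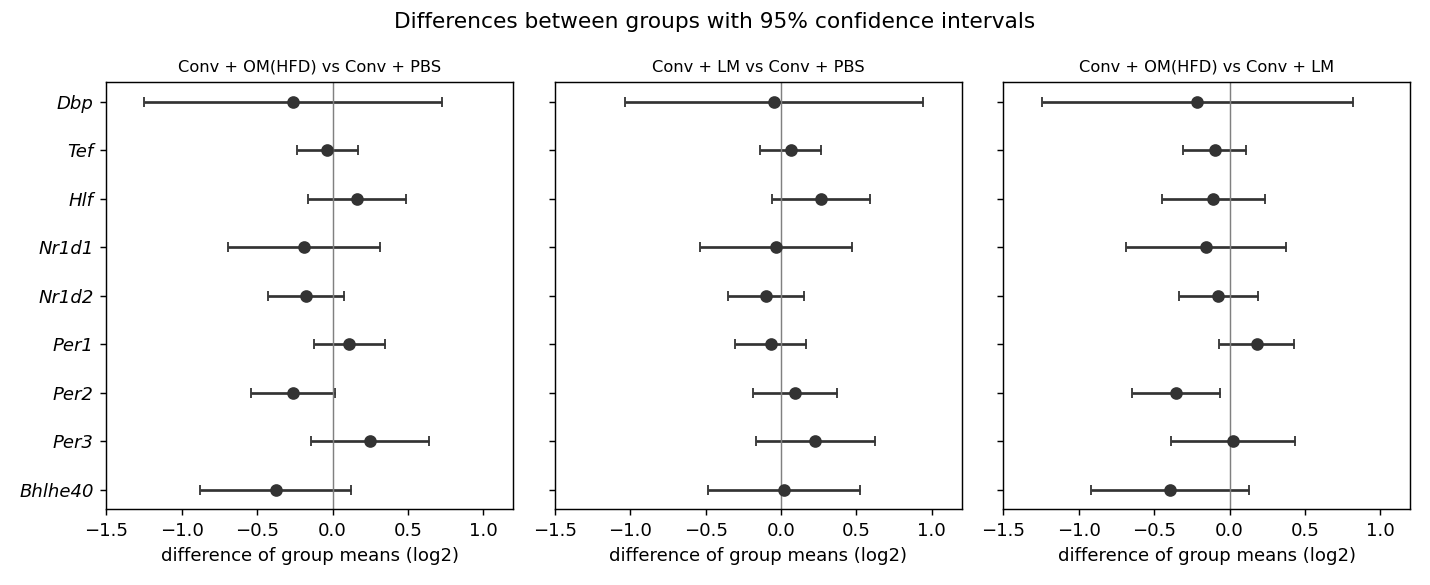
Differences of group means (x axis, log2, first group minus second) for the 9 measured genes (y axis) in the 3 comparisons, with points for the estimate and bars for the 95% confidence interval from limma. Apart from Per2 in Conv + OM(HFD) vs. Conv + LM mice (−0.35), every interval includes 0, and that of Dbp is the widest.

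Other genes of the clock were counted by lists. Of 6 measured genes of the positive limb and its ROR-driven genes (Arntl, Clock, Rora, Nfil3 and Cry1 among them), 0 had an unadjusted limma p under 0.05 in any of the 3 comparisons. Arntl differed by 0.29 between the HFD-microbiota and the vehicle (exact permutation p = 0.639). Of 8 further clock regulators, Cry2, a repressor of CLOCK and BMAL1, had such a p in 1 comparison, being lower with the HFD-microbiota than with the lean microbiota by a difference of −0.19 (limma p = 0.0398, adjusted p = 0.999; exact permutation p = 0.0159). Of 7 genes that PAR bZIP factors are known to drive, Cyp2a5, a cytochrome P450, had one, with a difference of −0.21 between the lean microbiota and the vehicle (limma p = 0.0156, adjusted p = 0.998; exact permutation p = 0.0152). Of 4 glucocorticoid-induced genes, 0 did. Over all genes 3.25% had such a p between the HFD-microbiota and the vehicle, 3.88% between the lean microbiota and the vehicle and 2.67% between both microbiotas, so that 1 gene of a list over 3 comparisons is near the background. Npas2 was not among the genes measured, and Noct was read under its older name Ccrn4l.

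The deviations of single mice from their group means were compared next, to describe which of these genes varied together. Over 36 pairs of the 9 genes, r ranged from −0.39 to 0.79 with a median of 0.29, and 30 pairs were above 0. The first principal component held 43.6% of their variance, with Per3 (loading 0.45), Dbp (0.45), Tef (0.40) and Bhlhe40 (0.39) leading, and the second 21.7%, with Hlf (−0.58), Per2 (−0.48) and Nr1d1 (0.43). Of the 36 pairs, 3 passed Benjamini-Hochberg adjustment over 45 relations, and 1 did on ranks. Dbp and Bhlhe40 rose and fell together (r = 0.79, permutation p = 0.00026, adjusted p = 0.0039; rho = 0.79, adjusted p = 0.0141), with r = 0.79 without the 2 mice farthest from the median of Dbp and 0.76 and 0.90 within the slides. Dbp and Tef did as well (r = 0.68, permutation p = 0.00264, adjusted p = 0.0297; rho = 0.66, adjusted p = 0.0727), with r = 0.56 without those 2 mice and 0.67 and 0.74 within the slides. For Nr1d1 and Per3 r was 0.72 (permutation p = 0.00385, adjusted p = 0.0346; rho = 0.67, adjusted p = 0.0834), with 0.58 without the 2 mice farthest from the median of Nr1d1 and 0.85 and 0.52 within the slides. Hlf stood outside this pattern, with r = −0.06 with Dbp, and Per2 and Nr1d2 had 0.26 and 0.28. These are values of the brightest probe of each gene. With Dbp, the other Nr1d2 probes had r of 0.43 and 0.49 and the other Per2 probe −0.09. The other Tef probes had r of 0.72, 0.57 and 0.14 with Dbp.

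Per3 shows how far the probe matters. The brightest probe had r = 0.67 with Dbp (adjusted permutation p = 0.0564), while the other 2 probes, on mm9 chromosome 4 from 150378473 to 150378532 and from 150406022 to 150406081, had 0.93 and 0.83. The promoter of Per3 shown above holds 2 D-boxes, the site that DBP binds, and the data do not show whether it was bound.

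Arntl ran the other way. It was lower in mice with more Dbp (r = −0.95, permutation p = 3e-05, adjusted p = 0.00135; rho = −0.94, adjusted p = 0.00135), with r = −0.93 without the 2 mice farthest from the median of Dbp and −0.94 and −0.97 within the slides. It was also lower in mice with more Bhlhe40 (r = −0.84, permutation p = 0.00019, adjusted p = 0.0039; rho = −0.80, adjusted p = 0.0135), with −0.76 without the 2 farthest mice and −0.84 and −0.82 within the slides. Of the 9 genes, 8 had r below 0 with Arntl, and 2 passed the adjustment. The largest value with Arntl after these was that of Per3 (r = −0.70, permutation p = 0.00712, adjusted p = 0.0534).

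**Figure D3:**
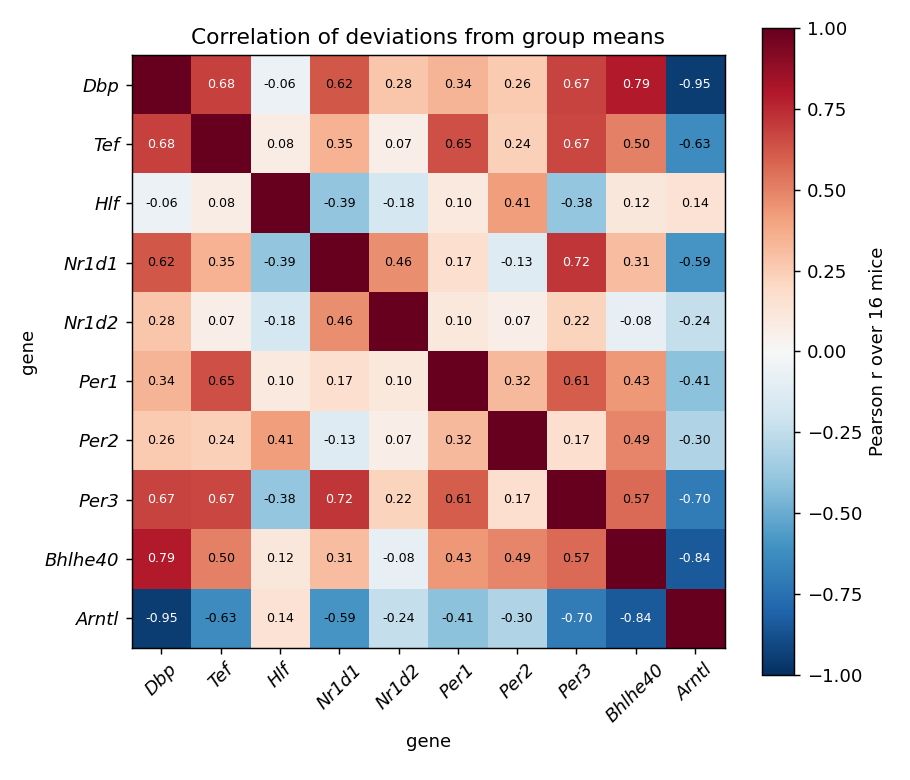
Pearson r (colour and number) between the 9 measured genes and Arntl (both axes) over 16 mice, from deviations from group means. Dbp, Tef, Nr1d1, Per3 and Bhlhe40 have r of 0.31 to 0.79 with each other and −0.59 to −0.95 with Arntl, and Hlf has r of −0.39 to 0.41.

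Among all 20404 genes, those most like Dbp over the 16 mice were Spg21 (r = 0.95), Krt18 (0.95), 1810059H22Rik (0.95), an unnamed transcript (0.94) and Ptprf (0.94). Among those most opposed were Arl4a (−0.96), Clpx (−0.95), Arntl (−0.95) and Plin5 (−0.95), a lipid droplet protein. None of these was a member, and their r are descriptions, chosen as extremes from many genes. With the brightest probe standing for each gene, Bhlhe40 was the member nearest to Dbp and ranked at 356 from the top. Its r was 0.79, and the other Per3 probes had 0.93 and 0.83 with Dbp. Summed markers of 10 cell types had r of −0.66 (bile ducts, 2 of 4 markers above background on every array) to 0.74 (B cells, 1 of 4, with Cd79a on no array) with Dbp. All 6 hepatocyte markers were above background on every array, with a summed level of 12.2 to 12.5 in Conv + PBS and Conv + LM mice, 12.3 to 12.5 in Conv + OM(HFD) mice and an r of −0.49 with Dbp. For neutrophil markers (2 of 5 above background on every array) that r was 0.53. Their part in the spread of Dbp was not tested, and fewer cells of a type and less RNA per cell cannot be told apart in whole liver.

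Once these values had been seen, the level of Dbp was found to follow the number that each sample title gives its mouse. In Conv + PBS mice numbered 1 to 6 it was 6.73, 6.48, 6.14, 5.38, 4.93 and 4.79. In Conv + LM mice 13 to 17 it was 6.58, 6.12, 5.66, 5.55 and 4.57, and in Conv + OM(HFD) mice 25, 26, 28, 29 and 30 it was 6.57, 5.87, 5.79, 4.95 and 4.22. In all 3 groups a higher number went with a lower level without exception. The labels do not say what the numbers stand for. Over the 16 mice, with group means removed from both, r was −0.96 (within-group permutation p = 1e-05, the smallest the permutations can give, adjusted p = 5e-05 over 10 genes; rho = −0.97, adjusted p = 5e-05), −0.95 without the 2 mice farthest from the median number, and −0.97 and −0.96 within the slides. The number held 92.7% of the variance of Dbp within groups.

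A slope over the mouse number was fitted with limma for every gene, and 8.91% of the 20404 genes passed an adjusted p under 0.05, 886 with a higher and 931 with a lower level at higher numbers. Of the 9 measured members 2 passed, and 8 had a slope below 0. Dbp changed by −0.43 per number with a standard error of 0.03 (adjusted p = 2.34e-05), the third smallest p of all genes, and its slope was −0.43 in Conv + PBS, −0.46 in Conv + LM and −0.41 in Conv + OM(HFD) mice. Bhlhe40 changed by −0.18 per number with a standard error of 0.04 (adjusted p = 0.0112). Per3, Nr1d1 and Tef had slopes of −0.10, −0.12 and −0.05 (adjusted p = 0.121, 0.182 and 0.195), and those of Per2, Per1, Nr1d2 and Hlf were −0.04, −0.02, −0.02 and 0.01 (adjusted p from 0.51 to 0.886).

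Among the clock genes outside this set, 5 of the 6 measured genes of the positive limb and its ROR-driven genes passed with a rise, where 8.91% of all genes passed in either direction. Arntl rose by 0.53 per number (limma adjusted p = 0.000295), Nfil3, a repressor that competes for the D-box, by 0.32 (0.000644), Cry1, a repressor that peaks late in the cycle, by 0.25 (0.000394), Clock by 0.16 (0.00373) and Rora, an activator of Arntl, by 0.09 (0.0203). Of the 7 genes driven by PAR bZIP factors 1 passed, Cyp7a1, the rate-limiting enzyme of bile acid synthesis and a known target of DBP, with −0.49 per number (adjusted p = 0.000205) and a level of 4.56, 4.16, 3.09, 1.78 and 2.05 in Conv + OM(HFD) mice 25, 26, 28, 29 and 30. The r of Cyp7a1 with Dbp was 0.89 over 16 mice. Por and Alas1 of the same list ran the other way, with r of −0.71 and −0.63 with Dbp. Their slopes were 0.09 and 0.12 per number (limma adjusted p = 0.0669 and 0.0746). The r of Cyp2b10 with Dbp was −0.33, and those of Nr1i3, Cyp2a5 and Cyp2a4 were 0.07, 0.07 and 0.12. Of the 8 further clock regulators Timeless passed with −0.12 (0.0259), and of the 4 glucocorticoid-induced genes Fkbp5 passed with 0.29 (0.000903). The other glucocorticoid-induced genes did not pass and went both ways, with slopes of −0.12 (Sgk1), −0.02 (Tsc22d3) and 0.09 (Tat). A single gene of 7 or of 8 is near the share of all genes that passed, and the count in the list of 4 is also a single gene. The genes named in this paragraph were chosen after their values were seen.

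The brightness of the array went with the mouse number with r = −0.36 and with Dbp with r = 0.37, the share of probes well above background with r = −0.02 and 0.08, and the slide with r = 0.25 and −0.30, all with group means removed. With the slide as a block, 7.12% of genes passed, and Dbp and Bhlhe40 did as well (adjusted p = 0.000116 and 0.0104). With the mouse number, centred within groups, as a covariate in the comparison of groups, 0 members and 0 genes passed after adjustment by limma, and 1, 0 and 2 members had an unadjusted p under 0.05, where 4.56%, 5.45% and 3.82% of all genes did. Bhlhe40 was among them in both comparisons of the HFD-microbiota.

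**Figure D4:**
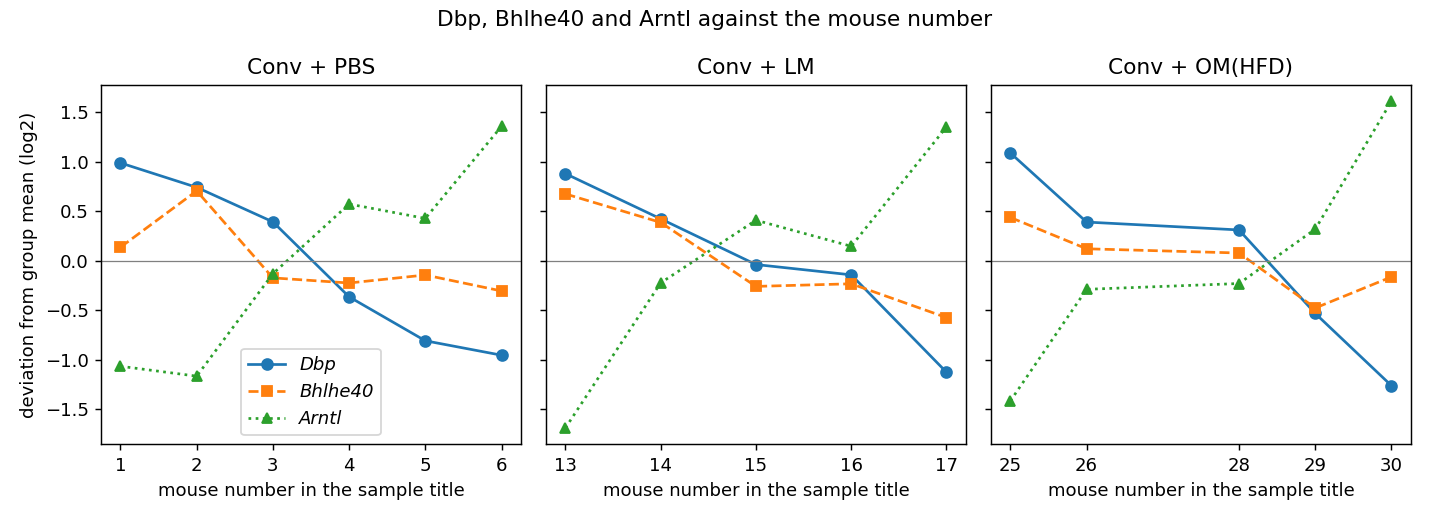
Deviation from the group mean (y axis, log2) of Dbp, Bhlhe40 and Arntl against the mouse number of the sample title (x axis), 1 panel per group, with 1 point per mouse. Dbp falls at every step in all 3 groups, with slopes of −0.43, −0.46 and −0.41 per number, while Arntl is lowest among the low numbers and highest at 6, 17 and 30.

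Each of 2 slides held 8 arrays and mice of every group, and all arrays were scanned on 1 day. The 75th percentile of intensity was 152.5 to 219.6 in Conv + PBS, 163.4 to 217.3 in Conv + LM and 163.9 to 204.5 in Conv + OM(HFD) mice, and 49.7 to 58.3% of probes were well above background. No probe of these genes was saturated on any array. The number of arrays limits the precision of every value.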

How the data were processed

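Liver RNA of 16 mice was labelled with Cy3 (200 ng per mouse) and hybridized to 1-colour Agilent arrays. Per the labels, the authors extracted the spots with Agilent Feature Extraction 10.10.1.1, and the deposited intensity values used here were background-corrected and not normalized between arrays. The authors also deposited log2 values, which matched quantile-normalized median intensity to within 0.132 over 59305 spots (column medians 5.49 to 5.52) and served as an alternative. All columns were matched to mice.

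Spots with an outlier flag were left out (1785), spots of a probe averaged, log2 taken and each array's 75th percentile subtracted. Probes had to be well above background on at least 5 arrays, and the brightest probe stood for a gene. Groups were taken from the labels and compared with limma 3.58.1 in R 4.3.3, all 3 groups in 1 fit, with Benjamini-Hochberg adjustment over 20404 genes, and by exact two-sided permutation, which can reach 0.00216 with 6 and 5 mice and 0.00794 with groups of 5. Correlations used 100000 two-sided permutations within groups. The fits were tested on simulated data, and the outcome is not reported here. Files were read with data.table version 1.17.8 and figures drawn with matplotlib 3.10.9 in Python 3.11.15.

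The members, the 4 gene lists (positive limb, further clock regulators, PAR bZIP targets, glucocorticoid-induced genes) and the markers of 10 cell types were chosen with earlier results of these data known. All members are named, and of the lists Arntl and genes at an unadjusted p under 0.05 in a comparison, with the 5 highest and 5 lowest r with Dbp. Some genes that this rule or the lists take in are not reported here. The alternatives were normexp (offset 50), quantile normalization, the authors' values, other filters, the slide as a block, only the groups compared, array weights, other uses of probes, the methods' Student's test and leaving out each mouse. The mouse number, centred within groups, was added after the data were seen.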

Additional observations from a re-analysis of the deposited data

Results flagged for a closer look

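In 2 of 27 combinations of gene and group, a mouse lay farther from the rest of its group than Dixon's 95% critical value allows, and it was the same mouse both times, where chance flags about 5% of groups. Tef was 6.43 in Conv + LM mouse 17, with the nearest of the other Conv + LM mice at 6.86, and Hlf was 2.41 in the same mouse, with the nearest at 2.68. Without this mouse, 3 instead of 1 of the 9 genes had an unadjusted limma p under 0.05 between the HFD-microbiota and the lean microbiota (Tef, Per2 and Bhlhe40), where the share of all genes was 3.51% instead of 2.67%, and 2 instead of 0 between the lean microbiota and the vehicle (Tef and Per3), where it was 4.37% instead of 3.88%. This mouse also had the lowest Dbp of its group and the highest number.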

How the results depend on the processing

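The number of the 9 genes at an unadjusted limma p under 0.05 between the HFD-microbiota and the vehicle was 0, and 1 with normexp, with only the groups compared, with array weights, with the methods' t-test or with the mouse number as a covariate, and 2 with the slide as a block. For the HFD-microbiota against the lean microbiota it was 1, and 2 with the slide or the mouse number and 0 with the mean of all probes. Leaving out 1 mouse at a time gave 0 to 1, 0 to 2 (Conv + LM vs. Conv + PBS) and 0 to 3. The share of all genes at such a p was 2.44 to 4.56%, 2.74 to 5.45% and 1.96 to 4.22% under the settings run in limma, the slide giving 3.40% and 4.22% for the comparisons of the HFD-microbiota, and 2.72 to 4.19%, 3.37 to 4.91% and 2.31 to 3.76% without 1 mouse. Under the other settings 297 differences were recomputed. Those under the other filters, only the groups compared, the methods' t-test and the centred mouse number equalled the main ones and could not change sign. Of the 297, 7 changed sign. For Per3 in Conv + OM(HFD) vs. Conv + LM mice (0.02) these were −0.0191 with normexp, −0.0139 with the authors' values, −0.0123 with the slide and −0.118 with the mean of all probes. For Conv + LM vs. Conv + PBS mice they were −0.0250 for Per2 and −0.101 for Bhlhe40 with array weights and −0.0364 for Tef with the mean of all probes. Leaving out 1 mouse changed the sign of 23 of 288, with ranges for Conv + OM(HFD) vs. Conv + PBS of −0.53 to 0.0553 (Dbp) and −0.38 to 0.0429 (Nr1d1), for Conv + LM vs. Conv + PBS of −0.27 to 0.24 (Dbp), −0.11 to 0.0527 (Nr1d1), −0.14 to 0.0118 (Per1) and −0.15 to 0.16 (Bhlhe40), and for Conv + OM(HFD) vs. Conv + LM of −0.50 to 0.10 (Dbp), −0.34 to 0.0772 (Nr1d1), −0.14 to 0.0522 (Nr1d2) and −0.12 to 0.15 (Per3). The causes were not tested. The median r of the pairs (0.25 to 0.34 without 1 mouse), the r of Dbp with Arntl (−0.97 to −0.94) and the slope of Dbp (−0.44 to −0.41) kept their sign under every setting run for them. With normexp, quantile normalization and the authors' values, 8.48%, 9.10% and 8.40% of genes passed for the slope. No paired analysis was run, because the groups share no mouse numbers and no label matches mice between groups. The 95% confidence interval of Dbp between the HFD-microbiota and the vehicle ran from −1.25 to 0.73 at a standard error of 0.464, which was 0.137 with the centred mouse number as a covariate.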
